A study of Mus musculus with 6 samples.

Results

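The junctions described here joined the Sμ bait on mouse chromosome 12 to a site on any other chromosome. Sμ is the switch region in front of the IgM constant gene, and the bait is the fixed end from which every junction was amplified. The members were all filled lines of the list of junctions outside the immunoglobulin heavy chain locus (IgH) whose mapped chromosome was not 12. There were 518 of them in the 4 libraries with such a list, out of 5608 junctions of all kinds in 6 libraries by the authors' counts. ATM RX/RX library 1 held 249, ATM RX/RX library 2 held 122, the listed ATM-/- library held 86 and the listed wild-type library held 61.

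Activated B cells cut their own switch regions during class switching. The enzyme AID deaminates cytosines in transcribed switch DNA, the lesions become double-strand breaks, and end joining ligates an Sμ break to a break in a downstream switch region. AID also acts at other transcribed genes, and an Sμ end that joins such a site, or any other break, makes a chromosomal translocation. ATM is the kinase that signals double-strand breaks and helps hold broken ends together. A joint can be direct, can carry inserted bases, or can rest on microhomology, a short run of bases that both ends share.

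The tested cells were of genotype ATM RX/RX, whose ATM protein lacks the FATC domain at its end, and of genotype ATM-/-, which have no functional Atm gene. Wild-type cells were the control. Each genotype had 2 libraries. All were splenic B cells without CD43, from mice of the 129 strain, stimulated in culture with IL-4 at 20 ng/mL together with an antibody to CD40 at 1 ng/mL, and harvested after 4 days. The design text says that the experimental mice carry a preassembled IgH locus. The files measure neither Atm nor any cell marker, so genotype and cell type were not checked. Nothing in the labels used here ties a library to its own animal, so the spread between libraries may be technical.

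By the authors' summary counts, junctions on other chromosomes made up between 17.5% and 26.1% of all junctions of a library. They numbered 322 of 1233 and 158 of 701 in the ATM RX/RX libraries, 104 of 414 and 324 of 1849 in the ATM-/- libraries, and 171 of 904 and 105 of 507 in the wild-type libraries. The shares were 26.1% and 22.5% in ATM RX/RX, 25.1% and 17.5% in ATM-/-, and 18.9% and 20.7% in wild type. Both ATM RX/RX libraries lay above both wild-type libraries, while the ATM-/- libraries lay on either side of them. The mean was 24.3% ± 2.53 in ATM RX/RX, 21.3% ± 5.37 in ATM-/- and 19.8% ± 1.27 in wild type (SD, n = 2 each).

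The ATM RX/RX mean was 4.51 points above wild type (two-sided exact permutation p = 0.3333, the smallest that 2 against 2 libraries can give). ATM-/- was 1.51 points above wild type (exact permutation p = 1.0), and ATM RX/RX was 3.01 points above ATM-/- (exact permutation p = 0.6667). No such comparison can reach 0.05 with these numbers. Fisher's exact tests between single libraries, which cover counting error only, were adjusted by Benjamini-Hochberg over 12 pairs. When ATM RX/RX libraries were set against wild type, 2 of 4 pairings passed, and adjusted p ran from 0.000572 to 0.524. Both were pairings of ATM RX/RX library 1, so that without it none passed. For ATM-/- against wild type 1 of 4 passed (0.0387 to 0.444), and for ATM RX/RX against ATM-/- 2 of 4 passed (1.80e-07 to 0.746), both of them against ATM-/- library 2. With all junctions that carry an insertion of 5 bp or more left out, the shares were 15.5% and 16.7% in ATM RX/RX, 16.7% and 14.4% in ATM-/-, and 15.5% and 14.4% in wild type. The difference of ATM RX/RX from wild type was then 1.19 points (exact permutation p = 0.3333). That setting was added once the values were known.

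**Figure D1:**
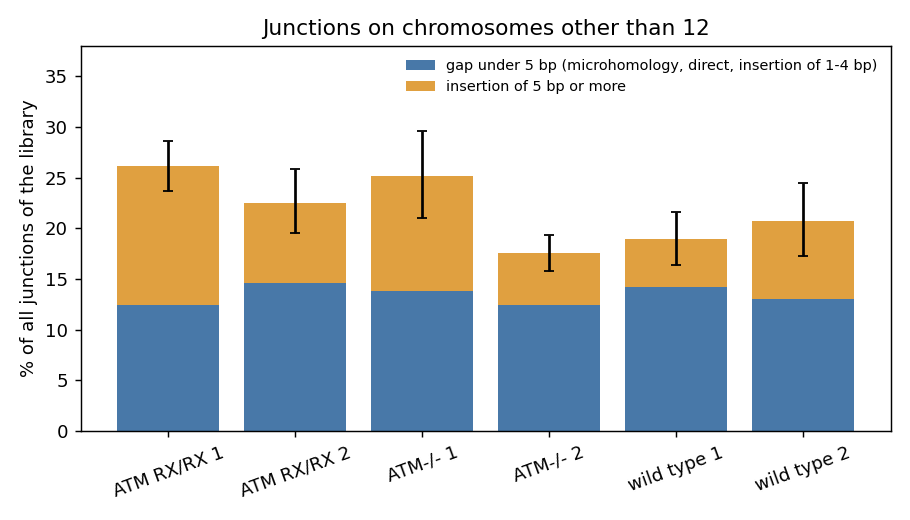
Junctions on chromosomes other than 12 as a percent of all junctions of each of the 6 libraries, with exact 95% binomial intervals for the whole bar. The orange part carried an insertion of 5 bp or more: the bars run from 17.5% to 26.1%, and the blue parts differ less between libraries than the whole bars.

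The lists did not hold every counted junction. Empty lines, not analysed here, left 77.3% and 77.2% of the authors' other-chromosome count in the 2 ATM RX/RX lists, 82.7% in the ATM-/- list and 35.7% in the wild-type list. The wild-type list is therefore the thinnest, and shares taken from it describe the listed lines. Counts by site below are counts of listed junctions.

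The printed sequences show the bait end and the 2 kinds of prey that the lists contained. The bait as most often read, from the nested primer onward, was the following, with the 12 bases that recurred in long microhomologies in capitals. Its coordinates are 114669183 to 114669257 on the minus strand of chromosome 12 in the authors' modified mm9 build, in which the IgH switch segment was replaced by 129 sequence.
Sμ bait: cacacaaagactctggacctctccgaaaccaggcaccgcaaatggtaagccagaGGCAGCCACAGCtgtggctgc

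The preys fell into 2 classes by base composition. In 248 of the 518 members (47.9%), C and T made up at least 80% of the prey as read, and these are called pyrimidine-rich below. The other 270 members are called mixed. Few members lay near the threshold: 4 had between 70% and 80% C and T, and 3 had between 80% and 85%, while 240 had 90% or more. The class was defined after the read sequences had been seen, so the features it separates are given as a description.

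Pyrimidine-rich preys made up 57.4% (143 of 249) and 34.4% (42 of 122) of members in the ATM RX/RX libraries, 45.3% (39 of 86) in the ATM-/- library and 39.3% (24 of 61) in the wild-type library. The 2 ATM RX/RX libraries lay further apart than the ATM-/- and wild-type libraries did. No prey in Sμ, Sγ1 or Sε reached the threshold: 0 of 1247 Sμ junctions allows a share of up to 0.295% by the exact interval. Of 90 listed junctions on chromosome 12 outside IgH, 17 were pyrimidine-rich. Of 244092 windows of 51 bp taken every 10 kb over the other chromosomes in mm9, 1.94% reached the threshold on 1 strand or the other.

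**Figure D2:**
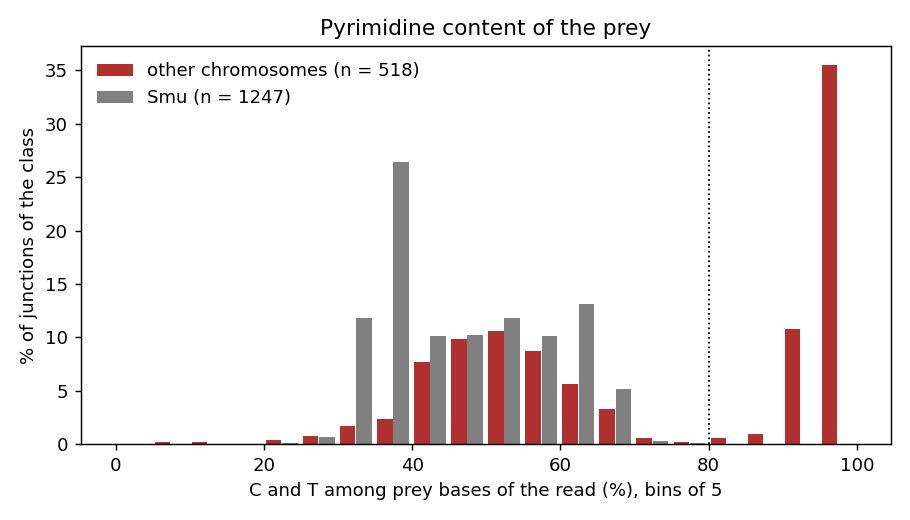
Percent of C and T among the prey bases of the read, in bins of 5 percentage points, for the 518 members (left bar, red) and 1247 Sμ junctions of the same 4 libraries (right bar, grey), each as a percent of its class. The members have a second peak above the dotted line at 80%, where no Sμ junction lies.

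The coordinate hit most often was of this kind. It lay at chr15:103140488 in mm9, in an intron of Gpr84, a receptor for medium-chain fatty acids, 381 bp from the gene start. Of its 11 junctions, all in plus orientation, 10 came from ATM RX/RX library 1 and 1 from ATM RX/RX library 2. The ATM-/- and wild-type lists had none. The prey printed first was read in 7 of the 11, and the second line is mm9 at chr15:103140488-103140526. Purines would be in capitals, and neither line holds any.
Gpr84 prey as read: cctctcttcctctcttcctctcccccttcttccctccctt
Gpr84 site in mm9: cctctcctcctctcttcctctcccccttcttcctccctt

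The reads of the 2 classes differed in several features, while the plus-orientation share was 47.2% ± 6.33 in the pyrimidine-rich class and 45.1% ± 2.13 in the mixed class (SD over 4 libraries). Where read and genome could be compared base for base, the median identity of the prey was 90.9% (151 members), against 100% for mixed preys (255 members). The median prey was 51 bp long, against 91 bp. The library linker is the adapter ligated to the far end of the fragment. It was taken here as the most common 12 bases after the prey in Sμ reads, so the Sμ count is partly set by that choice. This linker followed the prey within the read in 0 of 248 pyrimidine-rich members, in 243 of 270 mixed members and in 1111 of 1247 Sμ junctions. Among the 159 pyrimidine-rich members with an insertion of 8 bp or more, 25 had 8 bases that matched the linker with at most 1 mismatch between bait and prey. The bait ended at 1 base, position 114669205, in 24.6% of pyrimidine-rich members, in 1.85% of mixed members and in 2.25% of Sμ junctions. That excess was present in each library, at 23.1% and 26.2% in ATM RX/RX, 17.9% in ATM-/- and 41.7% in wild type.

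Among the members, nearly all repeated coordinates had pyrimidine-rich preys. The 518 members lay at 489 distinct combinations of coordinate and orientation. Of these, 16 held more than 1 junction, 15 of them pyrimidine-rich throughout, and 12 were hit in at least 2 libraries. The exception was a pair in ATM RX/RX library 1 on chromosome 4 with the same bait end and the same 2 bp of microhomology. In Sμ, a far smaller target, 146 coordinates held more than 1 junction over the same 4 libraries. Other tracts hit at neighbouring bases were in introns of Stat4, a cytokine-signalling transcription factor, with 5 junctions in ATM RX/RX library 1, and of Cmah, a sialic acid hydroxylase, with 4 in ATM RX/RX library 1 and 1 in ATM-/-. A tract upstream of Wnt9b, a signalling ligand gene, held 4 junctions at -7420 to -7437 bp from the gene start, of which 2 and 1 were in the ATM RX/RX libraries and 1 was in wild type. What produced the pyrimidine-rich class was not tested.

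The structure of the joints followed the prey class. Among pyrimidine-rich members, insertions made up 89.5% and 90.5% in the ATM RX/RX libraries, 92.3% in ATM-/- and 87.5% in wild type. Among mixed members, insertions made up 6.60% and 17.5% in ATM RX/RX, 10.6% in ATM-/- and 24.3% in wild type. The median gap was an insertion of 11 bp in the pyrimidine-rich class and an overlap of 2 bp in the mixed class, against an overlap of 2 bp in Sμ. Of the 201 members with an insertion of 5 bp or more, 185 (92.0%) were pyrimidine-rich, and of the 201 with microhomology, 190 were mixed.

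**Figure D3:**
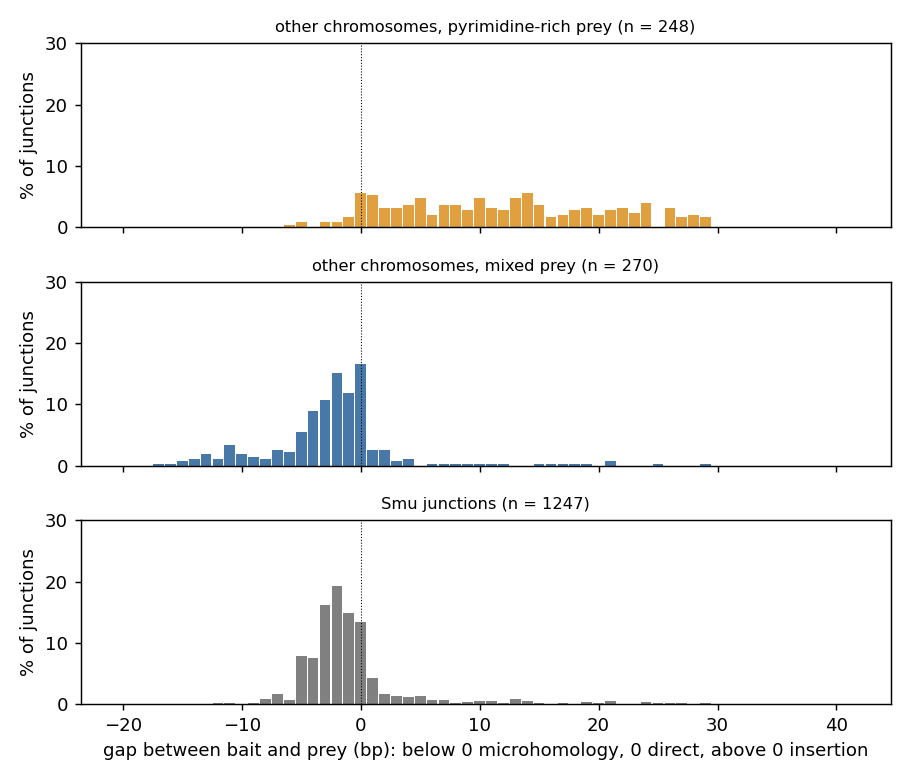
Gap between bait and prey in bp, as a percent of the junctions of each class, for pyrimidine-rich members (top), mixed members (middle) and Sμ junctions of the same 4 libraries (bottom). Pyrimidine-rich members lie mostly above 0, mixed members and Sμ mostly at or below 0, and mixed members have a further group of overlaps of 8 to 17 bp. Gaps above 41 bp are not drawn.

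Taken over all listed members, joints to other chromosomes had more insertions and less microhomology than Sμ joints of the same library. The insertion share was 54.2% against 18.0% in Sμ of ATM RX/RX library 1, 42.6% against 16.6% in ATM RX/RX library 2, 47.7% against 16.6% in ATM-/- and 49.2% against 15.5% in wild type. The insertion share was higher in 4 of 4 libraries, by 31.7 points on average. Each library passed Fisher's exact test for counting error, with adjusted p between 3.23e-23 and 4.28e-07 over 16 tests. The exact sign-flip test over the 4 libraries gave p = 0.125, the smallest that 4 libraries allow.

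The microhomology share was lower than in Sμ in 4 of 4 libraries, with differences of -38.3 and -29.3 points in ATM RX/RX, -26.8 points in ATM-/- and -17.0 points in wild type. All 4 passed Fisher's exact test (highest adjusted p = 0.0336), and the sign-flip test gave p = 0.125 (exact). The direct share differed from Sμ after adjustment in 1 of 4 libraries, wild type, where it was 9.84% against 26.5%. By the authors' summary counts over all 6 libraries, which include the lines that are empty in the lists, the difference from Sμ was 31.1 points for insertions and -26.4 points for microhomology. Both had the same sign in 6 of 6 libraries (exact sign-flip p = 0.03125, the smallest that 6 allow). For microhomology the difference ran from -44.3 to -6.52 points. It was smallest in wild-type library 1, at 51.5% against 58.0% in Sμ. The listed lines of that library therefore overstate its difference.

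Among mixed members alone, these differences were not detected. Microhomology was used in 72.6% and 63.8% of joints in the ATM RX/RX libraries, 80.9% in ATM-/- and 64.9% in wild type. The Sμ joints of the same libraries used it in 72.0%, 72.8%, 72.2% and 58.0%. The mean difference was 1.79 points for microhomology (exact sign-flip p = 0.75, 0 of 4 libraries past Fisher's test) and -1.92 points for insertions (exact sign-flip p = 0.75, 1 of 4 libraries).

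Long overlaps set mixed members apart from Sμ joints as a description. Overlaps of 8 bp or more were found in 36 of 270 mixed members (13.3%), against 19 of 1247 Sμ joints (1.52%) and 15 of 1034 Sγ1 and Sε joints (1.45%). They made up 10.4% and 11.3% of mixed members in the ATM RX/RX libraries, 12.8% in ATM-/- and 27.0% in wild type. In Sμ of the same libraries they numbered 7 of 539, 7 of 283, 1 of 187 and 4 of 238. The mean length of a microhomology was 4.88 ± 1.26 bp in mixed members and 2.88 ± 0.129 bp in Sμ (SD over 4 libraries). The 36 lay on 16 chromosomes, and 20 of them, on 13 chromosomes and from all 4 libraries, overlapped the same bait bases. The following reads show 2 per library, bait first, with the bases shared by bait and prey in capitals and the prey following. They are among the longest overlaps over those bases in each library.
ATM RX/RX 1, chr15:31098192-31098224: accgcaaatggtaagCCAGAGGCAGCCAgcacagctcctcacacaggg
ATM RX/RX 1, chr4:134116341-134116372: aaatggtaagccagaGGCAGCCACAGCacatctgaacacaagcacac
ATM RX/RX 2, chr15:27768736-27768769: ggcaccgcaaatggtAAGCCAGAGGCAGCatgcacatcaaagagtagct
ATM RX/RX 2, chr7:108859554-108859587, minus strand: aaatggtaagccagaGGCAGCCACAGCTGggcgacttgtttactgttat
ATM-/- 1, chr11:80718358-80718390, minus strand: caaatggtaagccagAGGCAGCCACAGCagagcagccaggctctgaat
ATM-/- 1, chr19:60115337-60115367: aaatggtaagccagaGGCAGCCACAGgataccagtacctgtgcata
Wild type 1, chr10:61435031-61435067, minus strand: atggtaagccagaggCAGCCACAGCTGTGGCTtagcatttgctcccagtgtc
Wild type 1, chr3:96887772-96887806: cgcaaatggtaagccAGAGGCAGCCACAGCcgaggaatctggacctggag
The 20 overlaps define where the bait was covered most often, and the printed reads were chosen from them. Each therefore holds all or part of GGCAGCCACAGC, the stretch in capitals in the bait sequence, by that choice. Why this part of the bait recurs was not tested.

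Between genotypes, no difference in joint structure or orientation among listed lines passed the adjusted test. Fisher's exact tests of each ATM RX/RX and the ATM-/- list against the wild-type list, and of each ATM RX/RX list against the ATM-/- list, gave 0 of 20 adjusted p under 0.05 and 0 of 20 unadjusted p under 0.05. Among mixed members alone, 1 of 5 pairs for microhomology (lowest adjusted p = 0.446, Fisher's exact test) and 1 of 5 for insertions (lowest adjusted p = 0.122, Fisher's exact test) had an unadjusted p under 0.05. From the summary counts, microhomology made up 33.1% ± 7.76 of other-chromosome joints in ATM RX/RX, 43.5% ± 4.40 in ATM-/- and 43.8% ± 10.8 in wild type (SD, n = 2 each). The difference between ATM RX/RX and wild type was -10.7 points (exact permutation p = 0.6667). In Sμ joints of the same libraries, microhomology made up 72.5% ± 0.726 in ATM RX/RX, 69.4% ± 3.96 in ATM-/- and 57.8% ± 0.304 in wild type (SD, n = 2 each). Insertions of 5 bp or more made up 52.5% and 35.4% of other-chromosome joints in ATM RX/RX, 45.2% and 29.0% in ATM-/-, and 25.1% and 37.1% in wild type, so the genotypes overlapped.

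Orientation was near even. Plus-orientation joints, in which the prey reads along the plus strand away from the joint, made up 50.2% and 47.5% of members in ATM RX/RX, 44.2% in ATM-/- and 44.3% in wild type. In Sμ joints of the same libraries the plus share was 43.0%, 37.8%, 38.5% and 24.8%. It was higher on other chromosomes in 4 of 4 libraries, by 10.5 points on average (exact sign-flip p = 0.125), and 1 library, wild type, passed Fisher's exact test (adjusted p = 0.00820). The bait lies on the same chromosome as Sμ, Sγ1 and Sε, so orientation there is not the same measure as on other chromosomes. Relative to the gene hit, 71 of 130 mixed members that lay in a single protein-coding gene read in the gene's own direction (54.6%, exact 95% interval 45.7% to 63.4%).

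Members were spread over the whole genome. At least 1 fell on each of the 18 autosomes other than chromosome 12, and on X and Y. ATM RX/RX libraries 1 and 2 hit 19 and 20 of these 20 chromosomes, the ATM-/- library hit 19 and the wild-type library 17. Another 3 members mapped to unplaced sequence of X and Y and have no annotation here. Per 100 Mb of sequenced bases, mixed members ranged from 6.53 to 26.8 over the autosomes, with a median of 10.0. Chromosome 7 was the highest and chromosome 17 the lowest. Chromosome 7 held 38 of 270 mixed members (14.1%) but 5.81% of the sequenced bases. Without those within 10 kb of Il4ra it held 25 of 257 (9.73%). Chromosome 7 took 13 of 106 and 13 of 80 mixed members in ATM RX/RX, 4 of 47 in ATM-/- and 8 of 37 in wild type. Pyrimidine-rich members ranged from 4.93 to 19.9 per 100 Mb and were densest among the autosomes on chromosome 15, where the Gpr84 coordinate lies.

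**Figure D4:**
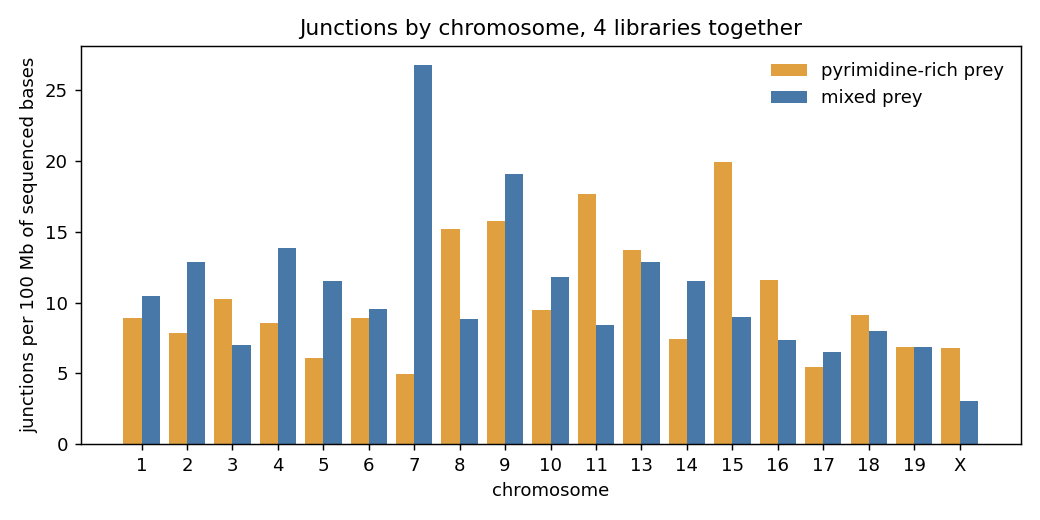
Members per 100 Mb of sequenced bases for each chromosome except 12 and Y, pyrimidine-rich preys (left bar, orange) and mixed preys (right bar, blue), over the 4 lists together. Mixed preys peak at 26.8 on chromosome 7, pyrimidine-rich preys at 19.9 on chromosome 15.

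Most mixed members stood alone. With a distance of 100 kb joining neighbours, 231 of 270 (85.6%) had no neighbour, and 4 groups had at least 3 junctions. All members together gave 17 groups of 3 or more, of which 13 were made of pyrimidine-rich preys only. The largest mixed group lay on chromosome 7 and held 14 junctions, with 3 and 7 in the ATM RX/RX libraries, 0 in ATM-/- and 4 in wild type. The other mixed groups held 3 junctions each. One covered Ubac2 and Gpr183 on chromosome 14, a second lay at Gm10800 on chromosome 2 within 130 bp, and the third lay in no annotated gene on chromosome 1 within 9438 bp.

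The chromosome 7 group was centred on Il4ra, which encodes the alpha chain of the IL-4 receptor and is known as an AID off-target in activated B cells. The gene runs from chr7:132695785 to 132722986 on the plus strand of mm9. It held 12 junctions: 3 in ATM RX/RX library 1, 6 in ATM RX/RX library 2, 0 in the ATM-/- library and 3 in the wild-type library. These were 1.20% and 4.92% of the members in ATM RX/RX, 0 of 86 in ATM-/- and 4.92% in wild type. For ATM-/-, 0 of 86 allows a share of up to 3.49% at 3 counts, and up to 4.20% by the exact 95% interval. Both limits lie above the share in ATM RX/RX library 1 and below those in ATM RX/RX library 2 and wild type. The exact 95% intervals of the latter 2 ran from 1.83% to 10.4% and from 1.03% to 13.7%. These intervals reach below both limits, so the counts do not separate ATM-/- from the other lists. Per 1000 junctions of all kinds by the authors' counts, listed Il4ra junctions numbered 2.43 and 8.56 in ATM RX/RX, 0 in ATM-/- and 3.32 in wild type. These rates set listed lines against full totals. The wild-type list held 35.7% of the authors' other-chromosome count, against 77.2% to 82.7% in the other lists. The wild-type rate is therefore not comparable with the others. No test between genotypes was run at this gene.

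All 12 Il4ra junctions lay in the first intron, between 751 and 4935 bp from the gene start. The intron runs from 57 bp to 12279 bp from that start, so its first part was hit and the rest was not. The 12 positions and the 12 bait ends were all different, 6 joints were in plus and 6 in minus orientation, and all 12 preys were mixed. Microhomology of 1 to 4 bp was used in 8, the other 4 were direct, and none carried an insertion. A further junction of ATM RX/RX library 2 lay 32143 bp from the gene start, past its end. A wild-type junction lay in the neighbouring Il21r, the IL-21 receptor gene, in an intron 2052 bp from its start. The reads below give 6 of the 8 joints with microhomology, 2 for each library, to show that they share neither bait end nor position, bait first, shared bases in capitals, prey last.
ATM RX/RX 1, chr7:132697365-132697392, minus strand: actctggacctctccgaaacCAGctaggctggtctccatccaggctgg
ATM RX/RX 1, chr7:132698682-132698708: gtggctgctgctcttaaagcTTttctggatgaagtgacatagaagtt
ATM RX/RX 2, chr7:132698157-132698184: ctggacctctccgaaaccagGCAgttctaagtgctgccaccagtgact
ATM RX/RX 2, chr7:132699954-132699982: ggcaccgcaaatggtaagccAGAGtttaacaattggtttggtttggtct
Wild type 1, chr7:132696684-132696709: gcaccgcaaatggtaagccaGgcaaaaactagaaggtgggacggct
Wild type 1, chr7:132698141-132698167, minus strand: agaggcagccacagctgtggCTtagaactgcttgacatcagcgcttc
No 2 of these joints used the same bait end, and the preys run in both directions.

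**Figure D5:**
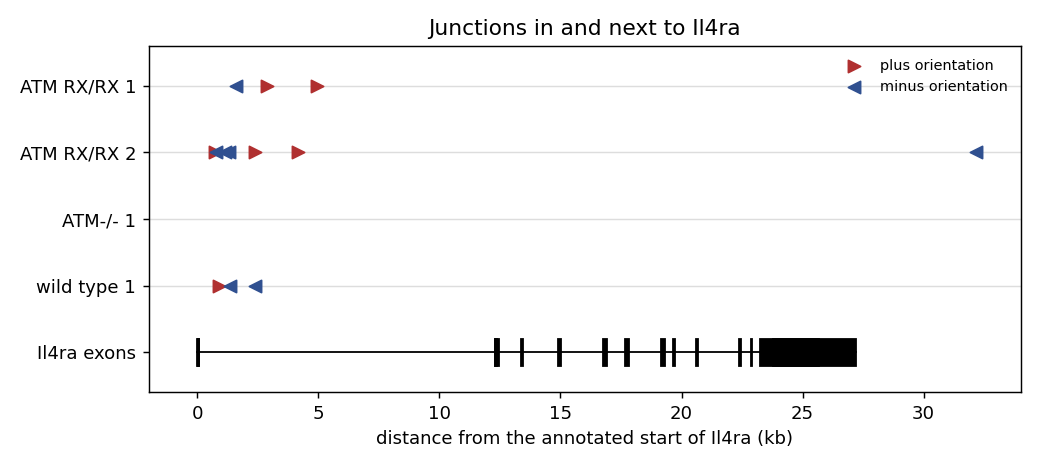
Position of each listed junction by distance from the annotated start of Il4ra in kb, for the 4 libraries with a list, with Il4ra exons below as black boxes and marker direction giving orientation. The 12 junctions in the gene lie between 751 and 4935 bp, in the first intron, and 1 lies past the gene's end.

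Other genes were hit by mixed preys from more than 1 library, but with 2 or 3 junctions each. Ubac2, a ubiquitin-associated domain gene, held 2 junctions in ATM RX/RX library 1 and 1 in wild type. Of these, 2 also lay in Gpr183, which encodes an oxysterol receptor that guides activated B cells and is read from the opposite strand within Ubac2. They lay in its intron, 1524 and 3762 bp from its start. Aff3, a transcription elongation factor gene expressed in lymphoid cells, held 1 junction in ATM RX/RX library 1, at 7121 bp from its start, and 1 in ATM-/-. Arhgap15, a Rac GTPase-activating protein gene, and Csmd1, a very long gene, each held 1 junction in each ATM RX/RX library. Tshz2, a zinc finger gene, held 1 in ATM RX/RX library 1 and 1 in wild type. A630007B06Rik held 1 in each ATM RX/RX library, at 56867132 in plus and at 56867174 in minus orientation. Their preys of 41 bp each overlap, with insertions of 29 and 4 bp and identities of 100% and 92.7%. What produced this pair was not tested. At Gm10800, the 3 junctions came from 3 libraries, and their preys reached 68.1% C and T. With 1 or 2 junctions a library, counts at these genes do not separate genotypes.

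By the lists, the AID off-target and B cell translocation genes held 17 members within 10 kb, 16 of them mixed, in 4 of 63 annotated genes. The 4 were Il4ra, Il21r, Aff3 and Myc. Their 16 mixed members made up 5.93% of the class, and all 17 were 3.28% of all members. The whole list with 10 kb on each side covers 0.238% of the sequenced bases, and 13 of the 16 were at Il4ra. This list was chosen with earlier results of these data known, so the comparison is a description and not a test of enrichment. The Myc member, in wild type, lay upstream of this proto-oncogene, at -6460 bp from its start, and was pyrimidine-rich, with a prey of 30 bp. Of 26 long or fragile-site genes, 6 held 7 members: Csmd1, Large, Park2 and Ptprd with mixed preys, and Dlg2 and Rbfox1 with pyrimidine-rich preys. The 5 mixed members among them were 1.85% of the mixed class, and all 7 were 1.35% of all members, against 1.41% of the bases. Of 210 antigen receptor gene segments on other chromosomes, 1 had a member within 10 kb, Igkv19-93, in ATM RX/RX library 1. This 1 member was 0.370% of the mixed class and 0.193% of all members, against 0.127% of the bases. The genes named here with 1 junction each met the list rule but had fewer junctions than the 30 best-hit genes, and are named because the list counts are small.

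As a description with no test, genes and gene starts held more mixed members than their share of the genome. Gene bodies held 51.3% ± 4.23 of mixed members and 40.8% ± 8.51 of pyrimidine-rich members (SD over 4 libraries), and they cover 41.4% of the sequenced bases. By library, the mixed share ran from 45.9% to 56.3%. Windows within 5 kb of a gene start held 22.0% ± 5.47 of mixed members and 18.5% ± 4.96 of pyrimidine-rich members, and they cover 12.4% of bases. Without the 12 Il4ra junctions these mixed shares were 48.9% ± 5.21 in genes and 18.2% ± 5.73 near starts. The excess was then not present in each library: ATM RX/RX library 2 had 10.8% near starts, and wild type had 41.2% in genes, both below the share of bases. In protein-coding genes, 15 of 136 mixed members were exonic and 121 intronic. In the single-gene hits, 49 of 130 mixed members lay in the first 20% of the gene. Without Il4ra this was 37 of 118 (31.4%), against 31.7% in the pyrimidine-rich class.

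Sequence motifs near the prey site were compared with the genome as a description. Windows of 100 bp on each side of the joint were searched on both strands and set against 244083 such windows spaced over the same chromosomes. AGCT, the overlapping hotspot that AID prefers, was present in 61.5% of mixed windows and in 59.3% of genome windows. Within 50 bp on each side AGCT was present in 43.3% of mixed windows (exact 95% interval 37.3% to 49.5%, counting error only), against 36.5% of genome windows. By library this was 53 of 106 and 32 of 80 windows in ATM RX/RX, 18 of 47 in ATM-/- and 14 of 37 in wild type. The share lay 13.5 points above the genome in ATM RX/RX library 1. It lay 3.54 points above in ATM RX/RX library 2, 1.84 in ATM-/- and 1.38 in wild type. Most of the pooled excess therefore came from ATM RX/RX library 1. GAGCT, which contains AGCT and is repeated in switch regions, was present in 37.4%, against 30.6%. By library GAGCT was present in 43.4% and 36.3% of mixed windows in ATM RX/RX, 27.7% in ATM-/- and 35.1% in wild type, so the ATM-/- library lay below the genome. GGGCT was present in 38.1% against 28.6%, and by library in 38 of 106 and 31 of 80 windows in ATM RX/RX, 16 of 47 in ATM-/- and 18 of 37 in wild type, all above the genome share. GGGGT was present in 28.1% (exact 95% interval 22.9% to 33.9%) against 23.2%, with the highest share, 37.8%, in wild type. Mixed windows had a median GC content of 46%, and the genome windows were not matched for it. The AflII site CTTAAG was present in 4.07% against 4.29%, and CACAGTG, the heptamer of V(D)J recombination signals, in 5.19% against 4.88%. GACCTC, the last bases of the nested primer, was present in 10.7% (exact 95% interval 7.31% to 15.1%) against 7.55%. By library this was 14 of 106 and 8 of 80 windows in ATM RX/RX, 6 of 47 in ATM-/- and 1 of 37 in wild type. The wild-type share, 2.70%, lay below the genome. In pyrimidine-rich windows AGCT was present in 38.4%.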

How the data were processed

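Junctions were mapped by HTGTS from an Sμ primer. The submitters' processing notes name Bowtie2 and mm9, with no version of Bowtie2 given in the sources used here; filters and duplicate handling are not given there either. Deposited values of other kinds are, per the file headers, junction coordinate, orientation, read positions of bait and prey, read sequence and junction totals per region and gap. Other-chromosome totals are the authors' total minus chromosome 12. The gap is the prey's first read position minus the bait's last, minus 1. The exchanged IgH segment affects chromosome 12 only, so NCBIM37 (mm9) sequence and GENCODE vM1 genes were used for members.

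Shares carry exact Clopper-Pearson 95% intervals. Intervals and floors (3 counts) cover counting error only, because PCR reads that carry no molecular identifier cannot be taken as separate molecules. Libraries were compared by two-sided exact permutation, sign-flip and Fisher's tests with Benjamini-Hochberg adjustment (scipy 1.17.1, pysam 0.24.0, pandas 2.3.3). Linker matches used the 12 bases most common after the prey in Sμ reads, with at most 2 mismatches within 14 bp of the prey. Named genes had members within 10 kb from at least 2 libraries, 3 in 1 library, or a place on a list; 42 qualified, of which 27 had pyrimidine-rich preys only, and at most 30 with the most junctions were eligible. Members and lists were chosen with earlier results of these data known. Alternatives were other denominators, gap minima, distances, gene sets and windows, repeated coordinates counted once, and libraries left out. One repeated site is not reported here.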

Additional observations from a re-analysis of the deposited data

How the results depend on the processing

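The comparisons of 2 against 2 libraries could not pass 0.05 under any setting. Leaving out each library in turn gave differences in the other-chromosome share of 2.73 to 6.30 points for ATM RX/RX against wild type, -2.29 to 5.31 for ATM-/- against wild type (negative without ATM-/- library 1) and -0.794 to 6.80 for ATM RX/RX against ATM-/- (negative without ATM-/- library 2). With the replicate number as a block, the differences stayed 4.51, 1.51 and 3.01 points, and the exact p was 0.5, 1.0 and 0.5. Replicates share only a number, and that fit changed no call. Against Sμ, with 1 library left out, the difference was -31.5 to -24.4 points for microhomology, 30.2 to 33.7 for insertions and 7.52 to 12.1 for plus orientation. The direct share differed by -6.29 to 0.370 points, above 0 without wild type. Microhomology of at least 2 bp gave -20.1 points, with 3 of 4 libraries past Fisher's test. Overlaps of at least 4 bp gave 0.356 points, a reversed sign, with 2 of 4 libraries past Fisher's test. That small mean therefore does not show that single libraries matched their Sμ joints. Without pyrimidine-rich preys, an alternative added later with the values known, the differences from Sμ were 1.79 points for microhomology, 0.127 for direct joints and -1.92 for insertions. Against Sγ1 and Sε, the plus share was higher by 22.5 points, in 4 of 4 libraries past the test. The cause of these changes was not tested. The share near gene starts was 12.6% within 2 kb and 45.1% within 20 kb. Groups of 3 or more numbered 38 at 1 Mb, 11 with repeated coordinates counted once and 4 without pyrimidine-rich preys. AGCT in the windows moved to 1.55 points above the genome without pyrimidine-rich preys, against -8.82 points with them. Among named genes, 39 of 84 counts moved by over 1.5 times. The thin wild-type list (61 members) and 2 libraries a genotype limit what differences could be detected.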
